A study of Rattus norvegicus with 58 samples.

Results

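Ubd encodes FAT10, a small protein of the ubiquitin family, and was measured by 1 probe set, the only one of 31042 on the array that carries the single symbol Ubd. It is 1 of 14217 genes named there. The gene was chosen by its levels in the inbred strains, seen in earlier results of these arrays, and the same rule names its distribution by glucose group. Both are therefore read as a description, and the adjusted p given for the glucose difference only places it among all probe sets. Liver RNA of male rats aged 17 weeks and fasted overnight was hybridised to 58 arrays. Of these, 46 held RNA of heterogeneous stock (HS) rats, outbred animals bred from several inbred founders, 23 of them glucose-intolerant and 23 with normal glucose tolerance. The description of the intolerant rats reads "normal glucose intolerance" while their title reads HighGlucose, and the titles and the design text were followed. The other 12 arrays were of inbred rats, with 2 each of ACI, BN, BUF, F344, M520 and WKY. The labels name no transgene and no drug for any group. They do not say whether both arrays of a strain stem from different rats, so the spread within a strain may be technical, whereas the HS arrays are each of another rat. Levels are given as log2 expression, on which a step of 1 doubles the signal.

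FAT10 consists of a pair of ubiquitin-like domains in tandem. It is activated by the E1 enzyme Uba6, passed to the E2 enzyme Ube2z, and joined to target proteins, which the proteasome then degrades. The gene lies in the major histocompatibility complex (MHC), which on the rat map is on chromosome 20. It is known to be induced by interferon gamma and tumour necrosis factor together, and in liver it is known from inflamed tissue and hepatocellular carcinoma.

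The promoter is shown because Ubd differed so widely between strains. It is the stretch just upstream of the annotated start of Ubd in RefSeq on the GRCr8 assembly, which was built from BN, one of the low strains. It spans chr20:1392686-1392935 on the minus strand, is 250 bases long, and is written 5' to 3' in the direction of transcription.
Ubd promoter: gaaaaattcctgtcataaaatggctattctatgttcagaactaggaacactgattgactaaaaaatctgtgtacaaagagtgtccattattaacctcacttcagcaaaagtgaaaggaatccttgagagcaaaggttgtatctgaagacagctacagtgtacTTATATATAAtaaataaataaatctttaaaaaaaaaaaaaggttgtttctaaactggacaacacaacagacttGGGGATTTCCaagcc
The first capitals mark 2 overlapping matches to TATATAA, at bases 163 to 172 of the printed sequence, a motif held by 3.41% of 33469 rat promoters of the same table. The second capitals mark 1 match to a loose NF-kB pattern (GGG, any 5 bases, then CC) at bases 236 to 245, a pattern held by 42.3% of those promoters. Both strands were searched, and the matches to the 2 motifs do not overlap each other. The letters TTCNNNGAA, the pattern of STAT sites, and a core of interferon response elements (GAAA, any 2 bases, then GAAA) had 0 matches in this window and occurred in 7.67% and 3.41% of promoters. The sequences of the other strains were not analysed here.

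Ubd was high in the liver of ACI and F344 and near the middle of the array in the other 4 strains. In ACI the 2 arrays read 10.3 and 10.5, and in F344 they read 9.44 and 9.81. The M520 arrays read 5.34 and 5.67, and the BUF arrays 5.19 and 5.39. The WKY arrays read 4.89 and 5.41, and the BN arrays 5.09 and 5.13. No array of ACI or F344 overlapped with any array of the other 4 strains, and the gap between the lowest of the former (9.44) and the highest of the latter (5.67) was 3.77.

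The strain means fell in the order ACI (10.4 ± 0.18, SD, n = 2), F344 (9.62 ± 0.26), M520 (5.50 ± 0.24), BUF (5.29 ± 0.14), WKY (5.15 ± 0.37) and BN (5.11 ± 0.03). The step from F344 to M520 was 4.12, against a pooled SD between arrays of a strain of 0.23. The step from ACI to F344 was 0.79, and both ACI arrays lay above both F344 arrays. The 3 steps below M520 were 0.21, 0.15 and 0.04, and neighbouring strains in that part of the order did not differ beyond the difference between the 2 arrays of a strain, which ran from 0.04 in BN to 0.52 in WKY. ACI stood 5.30 above BN. By this range of strain means Ubd ranked 18 of 31042 probe sets, whose median range was 0.41. Within its own array the Ubd signal exceeded 95.6% and 96.4% of probe sets in ACI and 92.7% and 94.2% in F344, but only 43.1% to 54.2% in the low strains. Readings in the low strains were close to those of the typical probe set of their arrays. Whether they lay above background was not tested, so no fold is given.

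The HS rats reached the levels of both the high and the low strains. Over all 46 the lowest level was 5.0, the median 8.78 and the highest 10.8, and the SD of 1.72 was the 12th largest of 31042 probe sets, whose median SD was 0.17. The rats fell into 2 separate ranges. From 5.77 to 7.57 there was no rat, and this gap of 1.80 compares with 0.35 for the next largest gap. The midpoint between the high and the low inbred arrays, 7.55, lies inside that gap although HS values did not set it. Above it were 36 rats (78.3%) and below it 10. Of the rats below, 9 lay in the range of the low strains. Of the rats above, 13 lay in the range of the ACI and F344 arrays, 2 exceeded it and 21 lay between the gap and the lowest F344 array.

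Of the 10 rats in the low range, 1 was glucose-intolerant and 9 had normal tolerance. In the intolerant group the lowest level was 5.29, the median 9.20 and the highest 10.8, and 22 of 23 rats were above the midpoint. In the normal group the lowest was 5.0, the median 7.83 and the highest 10.8, with 14 of 23 above and 9 below. The groups overlapped over nearly their whole span. These counts describe the distribution and were not tested. Fewer cells making a transcript and less transcript per cell cannot be told apart in whole liver.

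**Figure D1:**
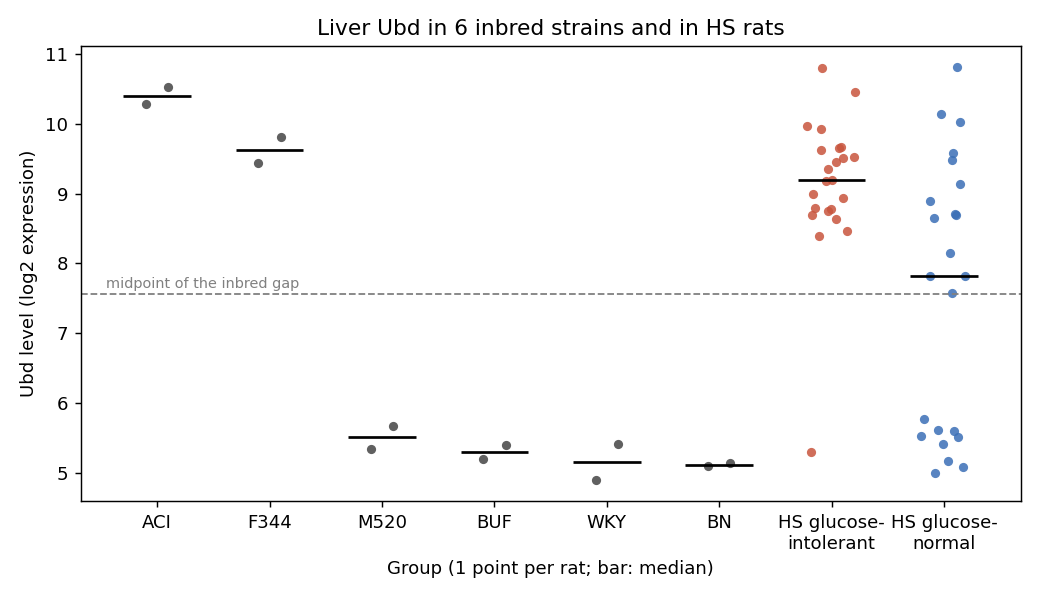
Ubd level (log2 expression, vertical axis) on each array, with the 6 inbred strains and the 2 glucose groups of HS rats along the horizontal axis. Each point is 1 array, the horizontal bars are group medians, and the dashed line is the midpoint between the high and the low inbred arrays (7.55). The 4 arrays of ACI and F344 lie above 9.4 and the other 8 below 5.7, and the HS rats lie on both sides of an empty stretch from 5.77 to 7.57.

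Ubd had a mean of 9.13 ± 1.04 (SD, n = 23) among the intolerant rats and of 7.57 ± 1.93 (SD, n = 23) among the normal ones. The difference was 1.56 ± 0.44 (SE), with an adjusted p = 0.271 in limma's fit over the array, so it was not called. The rule by which Ubd was chosen names this distribution, so that p is not an independent test. In this comparison 0 of 31042 probe sets were called (0%), and 2483 had an unadjusted p under 0.05. Among these probe sets the difference of Ubd ranked 2 by size and 97 by p. Leaving out each of the 46 rats in turn moved the difference between 1.44 and 1.73 and the adjusted p between 0.178 and 0.393.

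The named transcripts that varied with Ubd over the HS rats included MHC genes. With the glucose group held in the fit, 7 of 31041 probe sets had a slope on Ubd that passed the test (0.0226%), 3 of them named. H2-Q7-ps1, annotated as an MHC class I pseudogene, rose by 0.40 ± 0.06 (SE) per unit of Ubd (limma adjusted p = 0.0011). RT1-Bb, the beta chain of a rat MHC class II molecule, rose by 0.41 ± 0.07 (limma adjusted p = 0.00225), and AA926063, an uncharacterised transcript, by 0.48 ± 0.08 (limma adjusted p = 0.00225). All 3 genes lie on chromosome 20, and each was called in 46 of 46 fits that left out 1 rat. A second probe set of RT1-Bb had a slope of -0.11, the opposite sign, with an adjusted p = 0.549 in the same limma fit. H2-Q7-ps1 and RT1-Bb belong to multigene families, and whether their probe sets separate related genes was not tested.

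H2-Q7-ps1 was high in the same inbred strains as Ubd, and it too fell into separate ranges over the HS rats. Its mean was 7.32 in ACI and 7.03 in F344 and lay between 4.92 and 5.24 in the other 4 strains. Over the HS rats it ran from 4.61 to 7.62, with no rat between 5.30 and 6.13. Of the 14 rats under that gap, 10 were the rats of low Ubd and 4 had high Ubd, and the other 32 rats were high in both. Its pooled Pearson r with Ubd was 0.72. Within the 36 rats above the midpoint r was 0.26 (permutation p = 0.122) and rho 0.46 (permutation p = 0.00505), and r was 0.44 without the 2 of these rats farthest from the median Ubd. Within the 10 below r was -0.73.

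RT1-Bb and AA926063 were also high in strains of low Ubd. RT1-Bb averaged 8.51 in WKY and 7.22 in BN, strains of low Ubd, as well as 7.83 in ACI and 7.94 in F344, and it was 4.17 in BUF and 4.11 in M520. AA926063 averaged 7.30 in F344, 6.28 in ACI and 6.23 in WKY, against 4.66 in BN, 3.05 in BUF and 2.98 in M520. Within the 36 rats above the midpoint the r with Ubd was 0.70 for RT1-Bb (permutation p = 1e-05, the smallest these resamples can give). For AA926063 it was 0.51 (permutation p = 0.00146). Their rho there was 0.64 (permutation p = 4e-05) and 0.50 (permutation p = 0.00225). Without the 2 of these rats farthest from the median Ubd, r was 0.66 and 0.47. Within the 10 below it was -0.43 and 0.06.

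Of all genes, the 10 of highest Pearson r with Ubd over the 46 HS rats were H2-Q7-ps1, AA926063, RT1-Bb, Daxx, RT1-Ba, Cspp1, Lzic, Aldh1l2, Apoa4 and Psmb8. The lowest r among these was 0.51, in Psmb8. RT1-Ba, the alpha chain of the same class II molecule as RT1-Bb, had a slope of 0.18 on Ubd by this probe set, and its 3 other probe sets had slopes of the opposite sign, from -0.31 to -0.09. None of the 4 passed. Chromosome 20 held 6 of the 10, and it held 4 of the 5 genes of lowest r, which were Ltb (-0.63), Gabbr1 (-0.61), Cryab (-0.56), RT1-N2 (-0.56) and RT1-T24-4 (-0.55). It holds 2.8% of the genes measured. These r are measures of likeness over rats that fall into 2 ranges, and carry no test. Over the 12 inbred arrays the highest r were those of H2-Q7-ps1 (0.97), Mipep (0.95) and Nphs1 (0.91), followed by G3bp2, Ebpl, Dlst, Tpd52l1, Cd1d1, Rtf1 and Ldhb. Apart from H2-Q7-ps1, the 9 genes most like Ubd over the strains had r from 0.87 to 0.95 there and from -0.33 to 0.18 over the HS rats, and none was on chromosome 20.

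The next gene along the chromosome, Gabbr1, ran opposite to Ubd over the HS rats. Gabbr1 encodes a subunit of the GABA-B receptor. Its mean was 5.80 ± 0.21 (SD, n = 23) among intolerant rats and 6.21 ± 0.46 (SD, n = 23) among normal ones, a difference of -0.41 that did not pass (limma adjusted p = 0.237). Its slope on Ubd was -0.12 ± 0.03 (SE; limma adjusted p = 0.339). Within the 36 rats above the midpoint its r was -0.34, and within the 10 below 0.31. Its strain means were 6.04 in ACI and 6.01 in F344, where Ubd was high, but 6.03 in BN, where it was low, and from 6.41 to 6.59 in the other 3 strains. The 4 other probe sets of Gabbr1 had slopes from -0.06 to 0.01.

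No neighbour had a slope on Ubd that passed over all HS rats. The reference order gives 14 neighbours with a probe set of their own, 4 on one side and 10 on the other. Of these, 0 of 14 had a slope that passed, where 0.0211% of all genes did. The 13 apart from Gabbr1 had pooled r from -0.44 in RT1-M3-1 to 0.40 in Clic2, a chloride channel protein. Clic2 had r = 0.49 within the 36 rats above the midpoint (permutation p = 0.00228, adjusted p = 0.0271 over the 95 genes of the lists and neighbours). Its rho there was 0.44 (permutation p = 0.00758). Within the 10 below its r was 0.92 (permutation p = 2e-05). Without the 2 of those 36 rats farthest from the median Ubd its r was 0.34. Across strains Clic2 and Gabbr1 passed the F test (limma adjusted p = 0.00184 and 0.0322), 2 of 14 neighbours (14.3%) where 13.8% of all genes did. In ACI, Clic2 rose by 0.73 against the other strains (limma adjusted p = 0.00478), the 1 neighbour called there where 1.46% of genes rose, and in F344 it did not pass (0.00, limma adjusted p = 0.994). Its means were 8.92 in ACI and 8.31 in F344, and from 7.61 in BUF to 8.53 in WKY in the other strains.

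**Figure D2:**
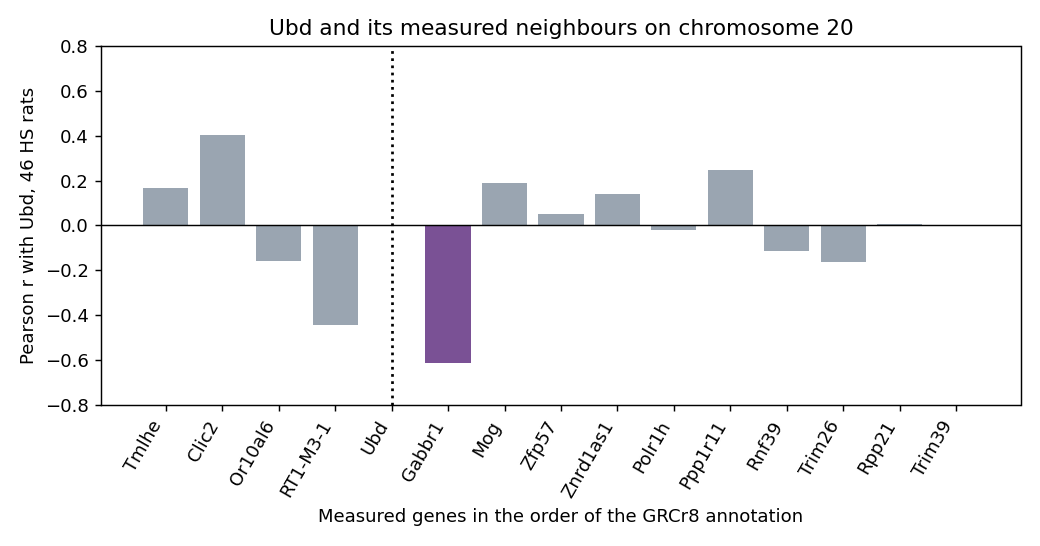
Pearson r with Ubd over 46 HS rats (vertical axis, no unit) for the 14 measured neighbours of Ubd, in the order of the reference annotation along the horizontal axis. Bars start at 0, and Gabbr1, beside Ubd, has the lowest value (-0.61), while Clic2 has the highest (0.40).

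No gene that attaches FAT10 or binds it passed the test over the HS rats, as was so for almost all genes. Of 9 listed, 8 were measured: the E1 enzyme Uba6, the E2 enzyme Ube2z, Nub1, which brings FAT10 to the proteasome, the proteasome subunit Psmd4, Sqstm1, Hdac6, Mad2l1 and Vcp. Their median difference between intolerant and normal rats was 0.00, with a range from -0.03 to 0.03, and 0 of 8 had a slope on Ubd that passed, where 0.0211% of all genes did. Across strains Nub1 passed the F test (limma adjusted p = 0.047), with means from 7.85 in M520 to 8.71 in BUF, so 1 of 8 (12.5%) stood beside 13.8% of all genes. Neither Nub1 nor any other of the 8 passed in ACI or F344 against the other strains.

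Of the other ubiquitin-like modifiers, 9 of 16 were measured, among them Isg15, Nedd8, Sumo2 and Ufm1. For glucose and for the slope on Ubd 0 of 9 passed, where 0% and 0.0211% of all genes did. The mean of Isg15, an interferon-induced modifier, was 7.62 ± 0.48 (SD, n = 23) among intolerant rats and 7.48 ± 0.50 (SD, n = 23) among normal ones. Isg15 was 1 of 2 of the 9 (22.2%) that differed among strains, where 13.8% of all genes did (limma adjusted p = 0.00553).

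Many interferon gamma response genes differed among the strains, and some rose in ACI or F344, the strains of high Ubd. Others had their highest mean in WKY, where Ubd was low. Of 19 measured, 12 passed the F test over the 6 strains (63.2%), beside 13.8% of all genes. The 19 were listed with earlier results of these data known, so such shares describe them and are no independent test. In ACI, 2 rose against the other strains where 1.46% of genes did: Cxcl10, a chemokine, by 1.12 (limma adjusted p = 0.00248) and Cxcl9, its relative, by 0.74 (limma adjusted p = 0.0188). In F344, 1 rose where 0.795% of genes did, the immunoproteasome subunit Psmb8 (1.08, limma adjusted p = 0.000178). No member was called lower in either strain, where 0.985% and 0.935% of genes were. At an unadjusted p under 0.05, 4 of 19 rose in ACI and 8 in F344, where 1126 and 836 of 14216 genes did. At that p 0 fell in ACI and 1 in F344, where 1149 and 907 genes did. Each contrast counts the other strain of high Ubd among those it is set against. Psmb8 averaged 10.4 in WKY and 8.06 in BN, both low in Ubd, and 9.43 in ACI.

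Over the HS rats 0 of the 19 passed for glucose, and 0 of 19 had a slope on Ubd that passed, where 0% and 0.0211% of all genes did. Psmb8 was nearest, with a difference of 0.38 (limma adjusted p = 0.179). The 14 measured genes of interferon gamma and TNF signalling include the receptor chain Ifngr1, the kinase Jak2 and the factor Irf8. Of these 14, 0 passed for glucose or slope, beside the same shares of all genes.

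With the 2 ranges of Ubd kept apart in the fit, 2 response genes rose with it. This was examined only after the 2 ranges were seen, with the side of the midpoint as a second covariate and a common slope assumed in both ranges. In that fit 8 of 31041 probe sets passed (0.0258%), and 0 of these were among the 7 of the first fit. Gbp2, a guanylate-binding protein induced by interferon gamma, rose by 0.66 ± 0.13 (SE) per unit of Ubd (limma adjusted p = 0.0306). Cxcl10 rose by 0.66 ± 0.13 (limma adjusted p = 0.0367). Over the 46 rats Gbp2 ran from 4.87 through a median of 6.22 to 8.13, and Cxcl10 from 4.48 through 5.86 to 7.68. The other named genes, chosen after their values were seen, were Vim (0.29), Fcnb (0.52), S100a4 (0.35), Lgals1 (0.33) and Sgk1 (0.32), with limma adjusted p from 0.0125 to 0.0424. Vim encodes an intermediate filament protein of mesenchymal cells and leukocytes, and Fcnb a ficolin of myeloid cells.

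These calls depended on single rats. Without intolerant rat 3 or without intolerant rat 22, 0 probe sets passed, and over the 46 fits that left out 1 rat the count ran from 0 to 11. Gbp2 was called in 41 of the 46 fits and Cxcl10 in 40. Vim was called in 44, Fcnb in 43 and S100a4 in 41, but Lgals1 and Sgk1 in 16 each. Without the 2 rats farthest from the median Ubd, Lgals1 and Sgk1 did not pass (limma adjusted p = 0.0715 and 0.0674), nor did Sgk1 after quantile normalisation (0.06) or Lgals1 with array weights (0.0586). Gbp2 and Cxcl10 were both lost without intolerant rats 3 or 22 or normal rats 8, 16 or 27. Cxcl10 was also lost without normal rat 10. The adjusted p of Gbp2 and Cxcl10 in these limma fits reached 0.201. The slopes themselves ran from 0.57 to 0.70 for Gbp2 and from 0.59 to 0.70 for Cxcl10. With the 36 rats above the midpoint alone 2 probe sets passed (0.00644%), 1 of them also in the first fit, RT1-Bb (limma adjusted p = 0.0232). In that fit Gbp2 and Cxcl10 did not pass (limma adjusted p = 0.0989 for each), and no other gene of the response list did.

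**Figure D3:**
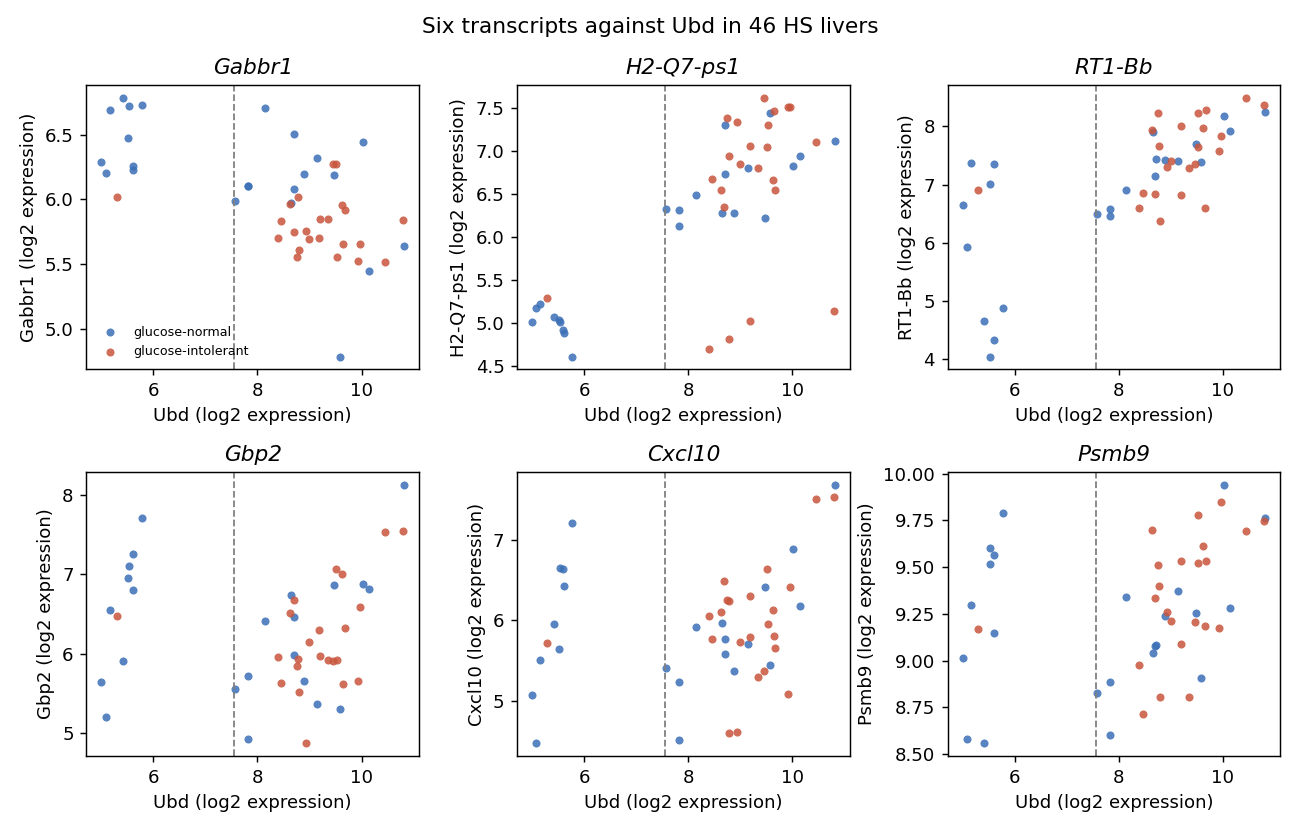
Levels of 6 transcripts (vertical axes, log2 expression) against Ubd (horizontal axes, log2 expression) in 46 HS rats, 1 point per rat, coloured by glucose group, with a dashed line at the midpoint of 7.55. H2-Q7-ps1 and RT1-Bb differ between the sides of the line, whereas Gbp2 and Cxcl10 span similar levels on both sides, with points that slope upward within each.

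Of the response list, 18 of 19 slopes in this later fit were positive, where 43.9% of all genes had a positive slope. As the list was chosen with earlier results of these data known, the shares here describe it and are no independent test. Of the 19, 2 were called, where 0.0492% of all genes were, and 10 were positive with an unadjusted p under 0.05, where 3.93% of all genes were. The median slope was 0.17 beside -0.01 over all genes. Within the 36 rats above the midpoint the median r of the list with Ubd was 0.32, beside -0.03 over all genes. In those rats 9 genes of the lists had an adjusted permutation p under 0.05 over the 95 genes. They were Psmb9, Cxcl10, Gbp2, Cxcl9, Psmb8, Tap1 and Gbp4 of the response list and Jak2 and Irf8 of the signalling list. That adjustment covered the 95 genes alone. None of the 9 passed in the limma fit of those rats over all probe sets (lowest adjusted p = 0.0989), where 0.00644% did. Psmb8, Psmb9 and Tap1 lie on chromosome 20, as Ubd does, and the part of that place in their r was not tested. Over all 46 rats a second probe set of Tap1 had a slope of -0.03 on Ubd, against 0.05 for the one used. Within the 36 rats Psmb9, an immunoproteasome subunit, had r = 0.64 (permutation p = 1e-05) and rho 0.59 (permutation p = 0.00018). Its r was 0.58 without the 2 rats farthest from the median Ubd, and its slope did not pass (limma adjusted p = 0.0642). Gbp2 had r = 0.61 (permutation p = 7e-05), rho 0.44 (permutation p = 0.0077) and r = 0.47 without those rats. Cxcl10 had r = 0.61 (permutation p = 3e-05), rho 0.43 (permutation p = 0.00939) and r = 0.46 without them. Within the 10 rats below the midpoint r was 0.86 for Gbp2 (permutation p = 0.00137), 0.91 for Cxcl10 (permutation p = 0.00032) and 0.64 for Psmb9, and 18 of the 19 response genes had a positive r.

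The signalling list had 13 of 14 positive slopes in the later fit with 0 called and a median of 0.04. The FAT10 partners had 1 of 8 positive with 0 called. Kupffer cells and macrophages are resident and recruited phagocytes, and 4 of their 6 listed markers were measured (Cd68, Clec4f, Cd163 and Cd5l). These had 4 of 4 positive slopes, from 0.11 to 0.22, with 0 called and a median of 0.13. Within the 36 rats above the midpoint, without the 2 farthest from the median Ubd, their r ran from -0.14 in Clec4f to 0.15 in Cd163. T and NK cell markers had 6 of 10 positive with 0 called and a median of 0.01. Positive slopes were also found in 3 of 3 B cell markers, 3 of 3 dendritic cell markers, 4 of 6 hepatocyte markers and 2 of 5 bile duct cell markers, with 0 called. The part of any of these cell types in the slopes of Gbp2 and Cxcl10 was not tested. In intolerant rats the summed Kupffer and macrophage markers ran from 10.6 to 11.8 on the log2 scale and in normal rats from 10.3 to 12.1, and the T and NK cell markers from 8.41 to 9.24 and from 8.13 to 9.64. None of the 4 Kupffer and macrophage markers lay below the array median, but 8 of 10 T and NK cell markers did. Hepatocyte markers, led by albumin, had a median level of 13.9, and all 6 lay above the array median.

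**Figure D4:**
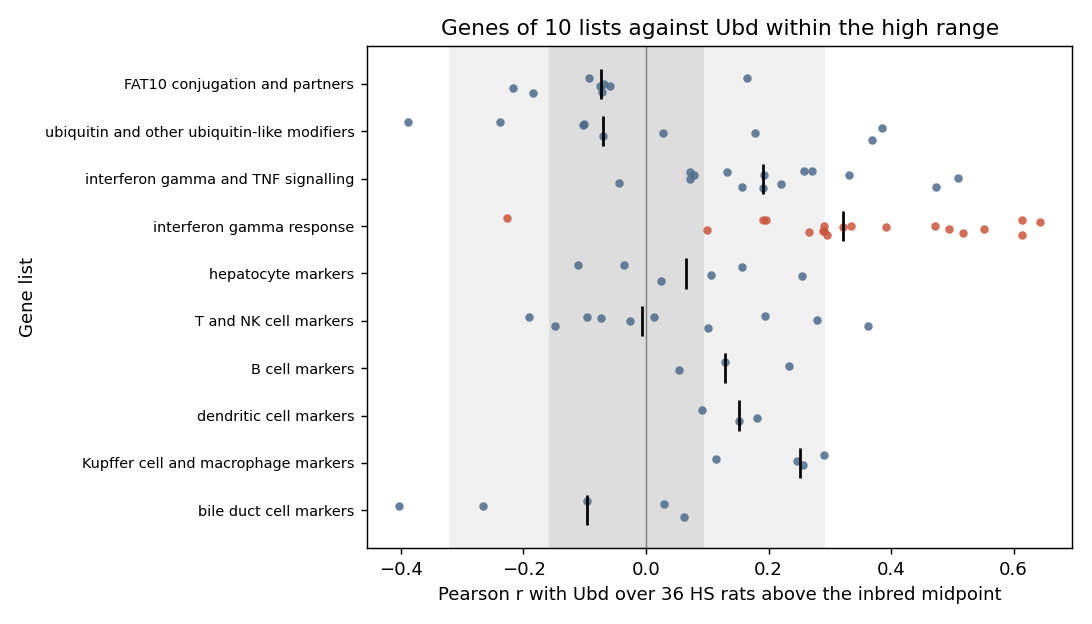
Pearson r with Ubd over the 36 HS rats above the midpoint (horizontal axis, no unit) for each measured gene of the 10 lists (vertical axis). Each point is 1 gene, and the interferon gamma response genes, with a median of 0.32, lie farthest to the right, with 18 of 19 above 0.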

How the data were processed

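Liver RNA was amplified in 2 cycles, biotin-labelled and hybridised to 58 Affymetrix arrays, per the labels' protocols. The authors' deposited table holds log2 expression, with array medians from 5.33 to 5.39. The submitters' processing notes name Partek. How signal was background-corrected, summarised and normalised, and in which batches, is not given by the sources used here. Precision is limited by how many arrays there are.

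A single symbol belonged to 20826 of 31042 probe sets, several to 436 and none to 9780. For each of 14217 genes the probe set of highest mean was used. Models were fitted to all probe sets as deposited with limma 3.58.1 (R 4.3.3), with Benjamini-Hochberg adjustment over all of them and a threshold of 0.05. Permutation tests used scipy 1.17.1. Glucose groups were assigned from the sample titles and strains from the strain label. The slope on Ubd was planned with the glucose group as covariate, without it, and without the 2 rats farthest from the median Ubd. The forms with the upper rats alone and with the side of the midpoint as a second covariate were chosen after the 2 ranges of Ubd were seen. A direct comparison of upper with lower rats was also computed and is not given, since it groups rats by a measured level.

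Named genes were Ubd, the members of 10 lists, up to 10 measured neighbours on each side in the GRCr8 gene order, the 10 genes of highest and 5 of lowest r with Ubd over the HS rats, and the 10 of highest r over the inbred arrays. The members and lists were chosen with earlier results of these data known. The fits were also run on simulated data with independent normal noise and 200 changed probe sets drawn at random. There the glucose comparison recovered 76% of shifts of 0.25 and 94% of shifts of 0.5. The ACI contrast recovered 14% of shifts of 0.5 and 78% of shifts of 1. False calls made up 1.6% of calls for glucose, 7.41% for the slope, 8.65% for ACI and 6.25% for the F test. These shares do not carry over to probe sets as variable as Ubd, or to real arrays whose probe sets vary together.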

Additional observations from a re-analysis of the deposited data

How the results depend on the processing

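The glucose difference of Ubd kept its direction and stayed short of the threshold under every alternative run, from quantile normalisation (1.55) to array weights (1.63), with limma adjusted p from 0.0881 to 0.393 and values from 1.44 to 1.73 without single rats. The count of probe sets called for glucose was 1 with quantile normalisation, 12 with array weights and 185 with the first residual component as covariate, against 0. The count with a slope on Ubd was 17 with no covariate and 2 with only rats above the inbred midpoint, against 7. The gap between high and low strains was 3.81 after quantile normalisation and 3.78 after centring. Within each Ubd range the count ran from 0 to 11 when single rats were left out. The cause of these shifts was not tested.

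Leaving out 1 inbred array moved the F test count from 3700 to between 2130 (without ACI replicate 1) and 5945 (without BUF replicate 1). It was 2241 without ACI replicate 2 and 2437 without M520 replicate 1. The ACI count of 752 ran from 148 (without ACI replicate 1) to 1452 (without BUF replicate 1) and was 177 without ACI replicate 2. The F344 count of 499 ran from 179 (without F344 replicate 2) to 687, with 195 without F344 replicate 1 and 328 without ACI replicate 1. Same-numbered inbred arrays mostly did not deviate together (15 pairs, median r -0.06), but r ran from -0.15 to 0.42 in the pair most alike. With the replicate number as a block the counts were 3698, 712 and 521.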
